A study of Mus musculus with 10 samples.

Results

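MSC II and MSC III, a pair of mouse bone marrow stromal cell preparations, were compared directly gene by gene. The arrays titled MSC II (2 arrays) and MSC III (2 arrays) were taken from the sample titles and made up 4 of the 10 arrays of the study, which held 5 preparations with 2 arrays each. All preparations, MSC II and MSC III included, were cells from the marrow of female C57BL/6J mice that were 6 to 8 weeks old. They had been passaged 16 to 17 times and grown in one mouse MesenCult medium with its supplement and with antibiotics. The labels named no treatment, genotype or sort, so the preparation alone set the groups apart. Neither the number of mice behind a preparation nor the source of its arrays, separate cultures or one, was given. The p-values therefore measure the spread between arrays, which may be technical, and 2 arrays per preparation limit the precision of every value.

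Mesenchymal stromal cells are the fibroblast-like cells that grow out of bone marrow on plastic and can form bone, fat and cartilage. In the marrow they also hold blood stem cells in place, through factors such as Cxcl12, Kitl and Vcam1, and build the matrix around them. Fibroblasts of different body sites are known to keep their own pattern of Hox genes, the homeobox transcription factors that set position along the body, through long culture. Levels below are deposited log2 values, so a difference of 1 is a fold of 2, and all differences are MSC II minus MSC III. These values compress differences near the floor, and a low level does not show that a transcript was absent, since probe sets were not scored for detection.

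Among the genes higher in MSC II were the ubiquitin ligase adaptor Asb4, the transcription factor Ebf3, the complement inhibitor Cd59a and the 7 tested genes of the Hoxb cluster. Of those 7, Hoxb4 to Hoxb7 passed the filter on low values through MSC II alone, so the filter itself favoured a difference. Among the genes higher in MSC III were the collagen-binding proteoglycan Fmod, the collagenase Mmp13, the receptor Epha3, the secreted matrix protein Smoc1 and osteoprotegerin (Tnfrsf11b). Of 10971 genes tested, limma called 331, or 3.02%, where a call needed both a difference of 1 or more in size and an adjusted p below 0.05. Of these, 165 (1.5%) were higher and 166 (1.51%) were lower in MSC II. The median difference over all tested genes was -0.006 and the median absolute difference was 0.24. The arrays of the preparations did not overlap for any of the 331 called genes, and they did not overlap for 56.7% of all tested genes. The counts moved when 1 array was left out, which also left its preparation with 1 array and the fit with less power. With MSC II replicate 1 left out 148 genes were higher and 81 lower, with MSC II replicate 2 left out 95 and 94, with MSC III replicate 1 left out 83 and 84, and with MSC III replicate 2 left out 97 and 62. Of the 331 genes, 111 kept their call whichever of the 4 arrays was left out.

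**Figure D1:**
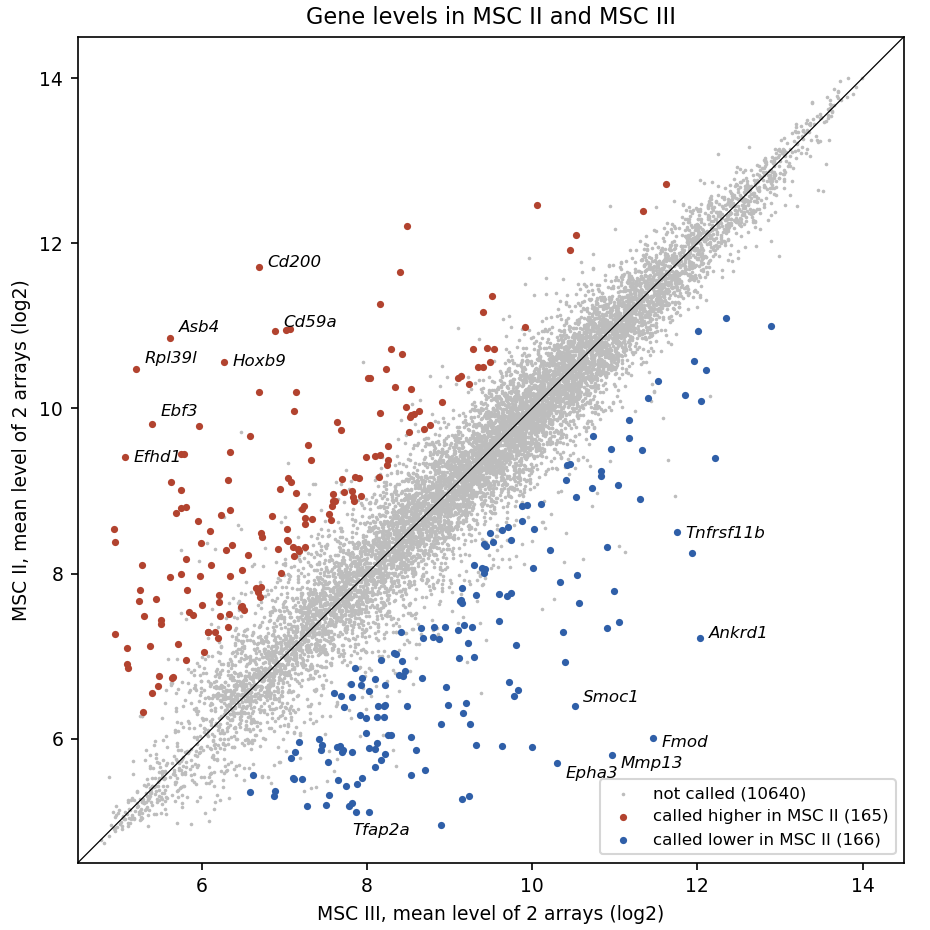
Mean level (log2) of each of the 10971 tested genes in MSC III (horizontal axis) and MSC II (vertical axis), each the mean of 2 arrays, with the line of equal levels. The 165 genes called higher in MSC II (red) and the 166 called lower (blue) lie on either side of a band of 10640 genes that were not called, and Rpl39l and Fmod stand among the points farthest from the line.

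The pair was among the more alike in the study, with the second lowest count of called genes of 10 pairs (227 for MSC III against MSC V, 2231 for MSC I against MSC IV). The arrays of MSC II correlated with each other at r = 0.971 and those of MSC III at r = 0.982, and the arrays of MSC II correlated with those of MSC III at 0.933 to 0.943 across genes, which are not independent replicates. Stromal markers were present in both: 14 of 17 measured surface markers of mesenchymal stromal cells had a mean above the median of the table in MSC II, and 14 of 17 in MSC III. Of 19 lymphocyte and granulocyte markers 0 reached it in either, and of 21 macrophage and monocyte markers 2 did in MSC II and 1 in MSC III. The summed level of the macrophage markers was 9.84 and 9.91 log2 in MSC II and 9.78 and 9.78 in MSC III. The leukocyte marker Ptprc stood at 5.25 and 5.14 in MSC II and at 5.13 and 5.15 in MSC III, and the endothelial marker Pecam1 at 4.95 and 4.88 and at 5.01 and 4.82. A change in the share of cells with a gene and a change in RNA per cell cannot be told apart in such bulk RNA.

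The Hoxb genes differed as a block. The cluster lies on chromosome 11 and holds 10 listed genes, of which 9 were measured by a probe set of their own and 7 were tested. Hoxb9, the tested gene nearest the tail end of the cluster, read 10.63 and 10.51 in MSC II and 6.09 and 6.46 in MSC III. Its difference of 4.29 ± 0.25 (SE, adjusted p = 0.000208) is a 19.6-fold higher level in MSC II. Hoxb2, the tested gene nearest its head end, read 8.45 and 9.01 in MSC II and 5.67 and 5.70 in MSC III, a difference of 3.05 ± 0.23 (adjusted p = 0.000715). Between them, Hoxb4 differed by 2.32 ± 0.12 (adjusted p = 9.22e-05), Hoxb5 by 2.19, Hoxb6 by 2.00 and Hoxb3 by 1.99. Hoxb7 had the smallest difference of the 7, 1.44 ± 0.19 (adjusted p = 0.00688), and an adjusted p of 0.0552 with MSC III replicate 1 left out and of 0.0514 with the 4 arrays fitted alone. In each of the 7 genes both MSC II arrays lay above all 8 other arrays of the study. MSC V came next, with a mean of 8.64 for Hoxb9 against 6.13 in MSC I and 7.23 in MSC IV. Hoxb1 and Hoxb13, at the outer ends of the cluster, stayed under the filter on low values, at 5.21 to 5.26 and at 4.82 to 5.21 on the 4 arrays. Hoxb4, Hoxb5, Hoxb6 and Hoxb7 passed that filter through the MSC II arrays alone, so the filter favoured a difference. The count of 7 is a description for that reason. The 899 tested genes of chromosome 11 had a median difference of 0.26, and the median of the 7 Hoxb genes was 2.19.

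A probe set at the miRNA gene Mir196a-1, which sits in the Hoxb cluster beside Hoxb9, moved with the cluster. It read 6.95 and 6.77 in MSC II and 5.12 and 5.09 in MSC III, a difference of 1.75 ± 0.12 (adjusted p = 0.000452). With Hoxb9, Hoxb7, Hoxb6, Hoxb5, Hoxb3, Hoxb4 and Hoxb2 it formed a run of 8 neighbouring tested genes called higher in MSC II. Mir196a-1, Hoxb4, Hoxb5, Hoxb6 and Hoxb7 passed the filter through MSC II alone, so the length of the run is a description. One further probe set at a miRNA gene, Mir31 on chromosome 4, kept its call whichever of the 4 arrays was left out. It was picked after its values were seen, with 7.87 and 7.80 in MSC II and 6.64 and 6.79 in MSC III (1.12 ± 0.12, adjusted p = 0.00281). Which RNA of the locus these probe sets read was not tested, and the values are not taken as levels of the mature miRNA. The mature products of both genes are shown because they name what each locus encodes, from RefSeq with assembly GRCm38.p6, with the seed (bases 2 to 8) in capitals. The first lies at chr11:96265187-96265208 on the plus strand and the second at chr4:88910614-88910635 on the minus strand.
miR-196a-5p: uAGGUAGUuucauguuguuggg
miR-31-5p: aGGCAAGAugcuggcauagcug
The seeds of the 2 miRNAs differ. The first belongs to the miR-196 family, which is known to target Hox transcripts.

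The other Hox clusters did not move in one direction. In the Hoxa cluster 1 of 10 tested genes was called, Hoxa11, a gene of the forearm and lower leg, with 5.34 and 5.10 in MSC II and 7.44 and 8.20 in MSC III. Its difference was -2.60 ± 0.24 (adjusted p = 0.00165), the opposite direction to the Hoxb genes. The rest of the cluster ran from -0.68 for Hoxa13 to 1.10 for Hoxa6 (adjusted p = 0.0777), with a median over all 10 of 0.20. In the Hoxc cluster 1 of 9 tested genes was called higher and 2 were called lower, 33.3% of the list against 3.02% of all tested genes. The higher one was Hoxc6, a gene of the chest region, at 10.08 and 10.45 against 7.88 and 8.81 (1.92 ± 0.34, adjusted p = 0.0203), and it lost its call without MSC II replicate 1 (0.0607), MSC II replicate 2 (0.112) or MSC III replicate 1 (0.096). The lower ones lie at the tail end of the cluster. Hoxc13, known from hair and nail, read 6.37 and 6.01 in MSC II and 8.63 and 9.17 in MSC III (-2.71 ± 0.21, adjusted p = 0.000729). Hoxc11 differed by -1.33 ± 0.18 (adjusted p = 0.00777), and its call was lost without MSC II replicate 2 (0.0556) or MSC III replicate 2 (0.0541). Of the Hoxd cluster only Hoxd8 of 9 measured genes was tested, with 5.15 and 5.15 in MSC II and 6.28 and 6.02 in MSC III, and its difference of -0.998 (adjusted p = 0.0102) stopped just short of the minimum for a call.

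**Figure D2:**
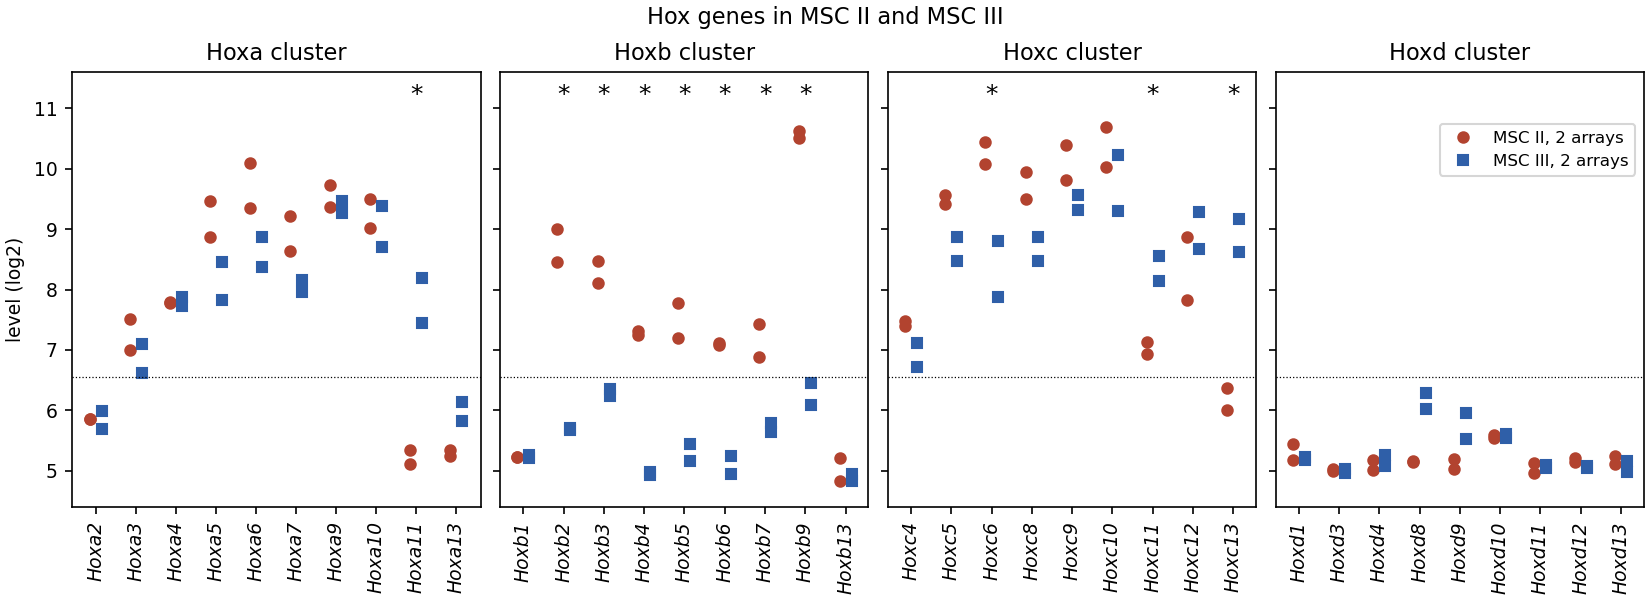
Level (log2) of each measured Hox gene on the 2 MSC II arrays (red circles) and the 2 MSC III arrays (blue squares), in the order of the genes' numbers within each cluster; stars mark called genes and the dotted line is the median of the table. From Hoxb2 to Hoxb9 the MSC II arrays lie well above those of MSC III, whereas Hoxa11, Hoxc11 and Hoxc13 are higher in MSC III.

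Transcription factors outside the Hox clusters split by preparation. Ebf3, a factor known from the Cxcl12-rich reticular cells of the marrow niche, read 9.41 and 10.21 in MSC II and 5.54 and 5.26 in MSC III (4.41 ± 0.26, adjusted p = 0.000208). MSC I and MSC V had means of 9.81 and 8.90, whereas MSC IV had 5.24, as low as MSC III. Vax2, a homeobox factor of the ventral eye, read 8.91 and 9.11 in MSC II against 5.79 and 5.70, a difference of 3.26 ± 0.12 (adjusted p = 2.37e-05). It passed the filter through MSC II alone, the remaining preparations having means between 5.58 and 5.89.

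Other factors were higher in MSC III. Of 22 tested limb and positional factors 4 were called lower in MSC II and 0 higher, 18.2% of the list against 3.02% of all tested genes. Tfap2a, the AP-2 factor of neural crest, face and limb, read 5.14 and 5.09 in MSC II and 8.03 and 8.03 in MSC III. Its difference of -2.91 ± 0.10 (adjusted p = 1.44e-05) had the lowest standard error of the 4, and the gene passed the filter through MSC III alone. Foxf1, a forkhead factor of visceral mesenchyme, read 6.21 and 6.42 against 8.81 and 9.51 (-2.85 ± 0.39, adjusted p = 0.00749) and lost its call without MSC III replicate 2 (0.057). Foxf2, its close relative, differed by -1.15 ± 0.14 (adjusted p = 0.00535) and kept its call whichever of the 4 arrays was left out. Msx2, a homeobox gene of limb and skull, differed by -1.20 (adjusted p = 0.0409) and was not called with any 1 of the 4 arrays left out (adjusted p = 0.122 to 0.168). The median of the 22 genes was -0.04, close to that of all tested genes.

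The largest difference in favour of MSC II belonged to Rpl39l, a copy of the ribosomal protein gene Rpl39 that is known from male germ cells. It read 10.40 and 10.55 in MSC II and 5.31 and 5.11 in MSC III, a 38.5-fold difference (5.27 ± 0.14, adjusted p = 5.44e-06). The means of MSC I, MSC IV and MSC V were 5.15, 5.16 and 5.09, so the high level was seen in MSC II alone. Whether its probe set also read Rpl39, a close copy, was not tested. Efhd1, a calcium-binding protein of mitochondria, had the same shape, with 9.54 and 9.27 in MSC II, 5.02 and 5.11 in MSC III and means of 4.98 to 5.14 elsewhere (4.34 ± 0.13, adjusted p = 8.08e-06). Both genes passed the filter on low values through MSC II alone.

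Asb4, the substrate adaptor of a ubiquitin ligase and an imprinted gene, was low in MSC III instead. It read 10.46 and 11.24 in MSC II and 5.72 and 5.53 in MSC III (5.23 ± 0.25, adjusted p = 8e-05). The means of the other preparations were 9.73, 9.05 and 10.36, and both MSC III arrays lay below all 8 other arrays. Lipo3, a member of a lipase family, was also low in MSC III, with 8.87 and 8.71 in MSC II, 5.99 and 5.51 in MSC III and means of 9.42 to 10.47 elsewhere (3.04 ± 0.21, adjusted p = 0.000419).

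Several genes of the cell surface were higher in MSC II. Cd59a, which shields cells from the membrane attack complex of complement, read 11.002 and 10.876 in MSC II and 6.81 and 6.98 in MSC III, a 16.5-fold difference (4.05 ± 0.18, adjusted p = 5.53e-05). Dpep1, a membrane dipeptidase, read 10.40 and 11.50 against 6.80 and 7.23 (3.93 ± 0.43, adjusted p = 0.00312). Entpd1 (CD39), which breaks down extracellular ATP and passed the filter through MSC II alone, read 8.46 and 8.82 against 5.91 and 6.00 (2.69 ± 0.23, adjusted p = 0.00112). In each of these 3 genes both MSC II arrays stood above both MSC III arrays by more than 2 log2. Cd200, a surface ligand that restrains myeloid cells, had the third largest difference in favour of MSC II, 5.01 ± 0.78, but its MSC III arrays lay apart, at 7.55 and 5.84 against 11.87 and 11.55 in MSC II. Its adjusted p of 0.0128 rose to 0.0645 without MSC II replicate 1, 0.0608 without MSC II replicate 2 and 0.0766 without MSC III replicate 2. Cd200 and Entpd1 were the 2 of 11 tested immune checkpoint genes that were called, 18.2% of the list against 3.02% of all tested genes. Cd274, the ligand of PD-1, differed by 0.48 (adjusted p = 0.302). Enpp3, an ectonucleotide pyrophosphatase, differed by 3.25 and the adhesion molecule Kirrel3 by 3.14, both higher in MSC II than on any other array of the study. The peptidase Naalad2 differed by 3.43 (adjusted p = 0.00422).

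Gpx3, a secreted glutathione peroxidase, read 10.40 and 9.99 in MSC II and 6.93 and 6.47 in MSC III (3.50 ± 0.38, adjusted p = 0.00308). It was 1 of 3 called among 28 tested NRF2 targets and antioxidant genes, all 3 higher in MSC II. These were 10.7% of the list against 3.02% of all tested genes, and the median of the 28 was -0.09. The other called ones were the glutathione transferases Mgst2 (2.08, adjusted p = 0.012) and Gsta4 (1.77, adjusted p = 0.0381). Mgst2 lost its call without MSC II replicate 2, MSC III replicate 1 or MSC III replicate 2 (0.057 to 0.0875), and Gsta4 lost it without any 1 of the 4 arrays (0.116 to 0.181). Crabp1, which binds retinoic acid in the cytosol, read 12.12 and 12.30 against 7.98 and 8.99 (3.73 ± 0.50, adjusted p = 0.00722). It was the 1 called gene of 11 tested for retinoic acid, 9.09% against 3.02% of all tested genes. Crabp2 differed by 0.92 (adjusted p = 0.0581) and the synthesis enzyme Aldh1a2 by -1.88 (adjusted p = 0.0944). Crabp1 was also listed as a neural crest and glial marker. Of the 3 tested markers of that list Crabp1 was higher and Gpnmb lower (-2.92), 66.7% against 3.02% of all tested genes. Sox10, which defines the lineage, read 5.22 and 5.16 in MSC II and 5.20 and 5.22 in MSC III. The summed level of the 15 measured markers was 12.39 and 12.55 log2 in MSC II and 11.83 and 11.05 in MSC III. Such a sum follows its highest members, in MSC II Crabp1 at 12.12 and 12.30. The median level of the 15 was 5.29 and 5.16 in MSC II and 5.28 and 5.26 in MSC III. The part of such cells in the result was not tested.

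Arhgdib, a gene best known from blood cells, read 9.75 and 9.84 in MSC II and 5.69 and 6.25 in MSC III (3.82 ± 0.32, adjusted p = 0.00109). Plac8, also known from blood cells, passed the filter through MSC II alone and read 9.62 and 9.29 against 5.57 and 5.93 (3.70 ± 0.17, adjusted p = 5.53e-05). Ptprc, which defines blood cells, read 5.25 and 5.14 in MSC II and 5.13 and 5.15 in MSC III, and 2 of the 21 macrophage and monocyte markers lay above the median of the table in MSC II against 1 in MSC III. The part of blood cells in these results was not tested. Tgfbr2, the type II receptor of TGF-beta, differed less but precisely, with 12.05 and 12.16 against 10.40 and 10.65 (1.58 ± 0.19, adjusted p = 0.00434). It was 1 of 2 called among 19 tested TGF-beta genes, 10.5% against 3.02% of all tested genes. The other, the elastic fibre protein Ltbp2, went the opposite way at 5.68 and 5.38 against 7.62 and 8.26 (-2.41 ± 0.24, adjusted p = 0.00233). Erbb4, a receptor tyrosine kinase for neuregulins, read 8.22 and 10.01 against 6.01 and 5.25 (3.49 ± 0.53, adjusted p = 0.0117) and lost its call without MSC III replicate 2 (0.0821) or with the 4 arrays fitted alone (0.0683). Of 12 tested genes in a list of ErbB, Kit, Met and some other growth factor receptors, 1 was higher, Erbb4, and 2 were lower. These were 25% of that list against 3.02% of all tested genes. Gfra1, the co-receptor for GDNF, was one of the lower ones, at 6.36 and 6.44 against 8.32 and 8.65 (-2.08 ± 0.16, adjusted p = 0.000762). The other was Ntrk3. Erbb4 passed the filter through MSC II alone, and Gfra1 and Ntrk3 through MSC III alone, so the filter favoured a difference in these genes.

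The second block of neighbours on the MSC II side was the guanylate-binding protein (Gbp) locus on chromosome 5. Gbp proteins are large GTPases that interferon induces and that attack intracellular microbes. Gbp9 read 9.33 and 9.56 in MSC II and 5.62 and 5.94 in MSC III, a 12.7-fold difference (3.66 ± 0.19, adjusted p = 9.4e-05). Gbp4 differed by 2.83 ± 0.29 (adjusted p = 0.00233), Gbp8 by 1.98 ± 0.17 (adjusted p = 0.00112) and Gbp11 by 1.81 ± 0.14 (adjusted p = 0.000715). With the zinc finger gene Zfp951 (2.42 ± 0.27, adjusted p = 0.0032) they formed a run of 5 neighbouring tested genes. All 4 Gbp genes passed the filter through MSC II alone, and they kept their calls whichever of the 4 arrays was left out.

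Of the 8 tested GTPases of the list, 50% were called against 3.02% of all tested genes. That share rests on genes that passed the filter through MSC II alone, in which the filter favoured a difference. The other 4 were not called. Gbp3 read 5.21 and 5.27 in MSC II and 5.45 and 5.31 in MSC III, Gbp7 5.73 and 5.52 against 5.69 and 5.64, and Iigp1 5.16 and 5.27 against 5.31 and 5.28, all near the floor in both. Irgm1 read 10.94 and 11.83 in MSC II against 9.60 and 10.74, without overlap, a difference of 1.22 ± 0.54 in the direction of the called genes (adjusted p = 0.216). Of 26 tested interferon response genes 0 were called, with a median of -0.08. The antiviral gene Ifit1 had the lowest difference of these, -1.15 (adjusted p = 0.081), and Irf1 the highest, 0.63 (adjusted p = 0.104). Of the 18 listed GTPases, 9 appear only on probe sets that list several symbols and were left out. Family members are similar in sequence, and how far 1 probe set read another member was not tested.

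The largest single difference in favour of MSC III was that of a matrix gene. Fmod (fibromodulin), a small proteoglycan that organises collagen fibrils in tendon, read 5.70 and 6.31 in MSC II and 11.72 and 11.21 in MSC III. This was a 43.9-fold lower level in MSC II (-5.46 ± 0.61, adjusted p = 0.0036). MSC IV and MSC V had means of 9.72 and 10.91 and MSC I had 5.36, so the low level was shared by MSC I and MSC II. Tnn, a tenascin of bone and tendon, read 6.53 and 7.33 against 10.59 and 10.20 (-3.47 ± 0.28, adjusted p = 0.000846) and was higher in MSC III than on any other array. Smoc1, a secreted calcium-binding protein of basement membranes, read 6.06 and 6.74 against 10.39 and 10.64 (-4.12 ± 0.33, adjusted p = 0.000846). For Smoc1 the MSC II arrays were the lowest of the 10 and the MSC III arrays the highest.

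Of 41 tested matrix glycoproteins and proteoglycans 6 were lower and 2 higher in MSC II, with a median of -0.18. These calls were 19.5% of the list against 3.02% of all tested genes. Lama5, the laminin chain of vascular basement membranes, read 7.79 and 7.88 in MSC II and 9.16 and 9.14 in MSC III (-1.32 ± 0.17, adjusted p = 0.00596). Beside Fmod, Tnn and Lama5, the lower ones were the microfibril protein Mfap5 (-1.48) and the fibulins Fbln1 (-1.45) and Fbln2 (-1.39). The lower count was 3 when MSC III replicate 2 was left out, where Mfap5, Fbln1 and Fbln2 were not called (adjusted p = 0.0614, 0.174 and 0.0715). Each of these 3 was also not called with at least 1 other array left out (Mfap5 0.0622 and 0.074, Fbln1 0.105 and 0.157, Fbln2 0.0509). The higher ones were the fibulin Efemp1, at 10.80 and 11.12 against 6.41 and 7.74 (3.89 ± 0.51, adjusted p = 0.00684), and decorin (Dcn, 1.79, adjusted p = 0.0449). Dcn lost its call without MSC II replicate 1 (0.138), MSC II replicate 2 (0.139) or MSC III replicate 1 (0.19). Fibronectin (Fn1) differed by 0.03 and Sparc by 0.16, with adjusted p of 0.921 and 0.5.

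Among 19 listed collagen chains that were tested the paired basement membrane genes Col4a1 and Col4a2 were called, both lower in MSC II. These were 10.5% of the list against 3.02% of all tested genes. Col4a1 read 6.30 and 6.50 in MSC II and 8.09 and 8.33 in MSC III (-1.81 ± 0.21, adjusted p = 0.00422). Col4a2, its neighbour on chromosome 8, read 6.44 and 6.58 against 7.67 and 7.97 (-1.31 ± 0.20, adjusted p = 0.0115), and lost its call without MSC II replicate 1 (0.0631), MSC II replicate 2 (0.0553) or MSC III replicate 2 (0.0825). Col1a1, the main chain of bone collagen, differed by -0.13 (adjusted p = 0.819). Col6a5, a collagen VI chain outside the list, was higher in MSC II, at 7.76 and 9.32 against 5.13 and 4.76 (3.59 ± 0.47, adjusted p = 0.00688). It passed the filter through MSC II alone and lost its call with MSC III replicate 2 left out. Mmp13, the collagenase of cartilage and bone, read 6.00 and 5.60 against 10.30 and 11.63, a 35.9-fold lower level in MSC II (-5.16 ± 0.60, adjusted p = 0.00422). With cathepsin C (Ctsc, -3.08 ± 0.32, adjusted p = 0.00271) it was 1 of 2 called among 26 tested proteases and inhibitors. The 2 were 7.69% of the list against 3.02% of all tested genes. Mmp2 and Mmp14 differed by 0.04 and 0.06, with adjusted p of 0.936 and 0.874.

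Single members of the bone, Wnt and IGF lists were higher in MSC III. Tnfrsf11b (osteoprotegerin), the decoy receptor that keeps RANKL from forming osteoclasts, read 8.68 and 8.34 in MSC II and 11.96 and 11.55 in MSC III (-3.24 ± 0.29, adjusted p = 0.00149). Its MSC II arrays were the lowest of the 10. RANKL itself (Tnfsf11) read 6.36 and 6.72 against 6.51 and 6.55 (0.01, adjusted p = 0.988), and the osteoclast growth factor Csf1 differed by -0.46 (adjusted p = 0.269). Sfrp1, a secreted Wnt antagonist, read 7.04 and 7.66 against 10.44 and 11.37 (-3.56 ± 0.39, adjusted p = 0.0032). It was the 1 called gene of 16 tested Wnt antagonists and targets, 6.25% against 3.02% of all tested genes. Of 21 Wnt ligands and receptors 0 were called.

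Igfbp6, a binding protein with a preference for IGF2, read 6.09 and 5.76 against 8.96 and 9.68 (-3.39 ± 0.24, adjusted p = 0.000479). The other preparations had means of 5.54 to 6.16, so that the high level was that of MSC III, and the gene passed the filter through it. Of 18 tested IGF genes 3 were lower in MSC II and 0 higher, the others being Pappa2 (-3.25, adjusted p = 0.0208) and Igf2 (-1.85, adjusted p = 0.0403). These 3 were 16.7% of the list against 3.02% of all tested genes. The count was 1 with either MSC II array or MSC III replicate 1 left out, and 2 with MSC III replicate 2 left out. Igf1 differed by -1.11 (adjusted p = 0.104) and its receptor Igf1r by 0.02 (adjusted p = 0.965).

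Enzymes and regulators of other kinds were among the largest differences in favour of MSC III. Nlrp2, a NOD-like receptor family member known from oocytes, read 4.81 and 5.10 in MSC II and 9.45 and 8.33 in MSC III (-3.94 ± 0.34, adjusted p = 0.00112). Pcbd1, an enzyme that recycles the cofactor tetrahydrobiopterin, read 5.35 and 5.19 against 9.70 and 8.61 (-3.88 ± 0.44, adjusted p = 0.0039). Both passed the filter through MSC III alone, whose arrays lay above the other 8. Pde2a, a phosphodiesterase of cyclic nucleotides, read 6.12 and 7.05 against 10.01 and 9.64 (-3.24 ± 0.30, adjusted p = 0.00177), but its level was higher still in MSC I, at a mean of 12.12. Ankrd1, a nuclear protein induced by mechanical tension through YAP, read 7.442 and 7.005 against 11.83 and 12.24 (-4.82 ± 0.65, adjusted p = 0.00733). It lost its call without MSC II replicate 2 (0.0509) or MSC III replicate 2 (0.057), and Ccn1 and Ccn2, further targets of YAP, differed by -0.04 and 0.75 (adjusted p = 0.953 and 0.406). The small GTPase Rasl11a (-3.08, adjusted p = 0.00281) kept its call with each of the 4 arrays left out. Parm1, a mucin-like membrane protein (-3.72, adjusted p = 0.0163), lost it with any 1 left out (0.051 to 0.0903), Islr, a marker of mesenchymal cells (-3.19, adjusted p = 0.0239), with MSC II replicate 1 or either MSC III array left out (0.0782 to 0.14), and the acyltransferase Mogat2 (-3.06, adjusted p = 0.00736) with MSC III replicate 1 left out (0.0552).

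**Figure D3:**
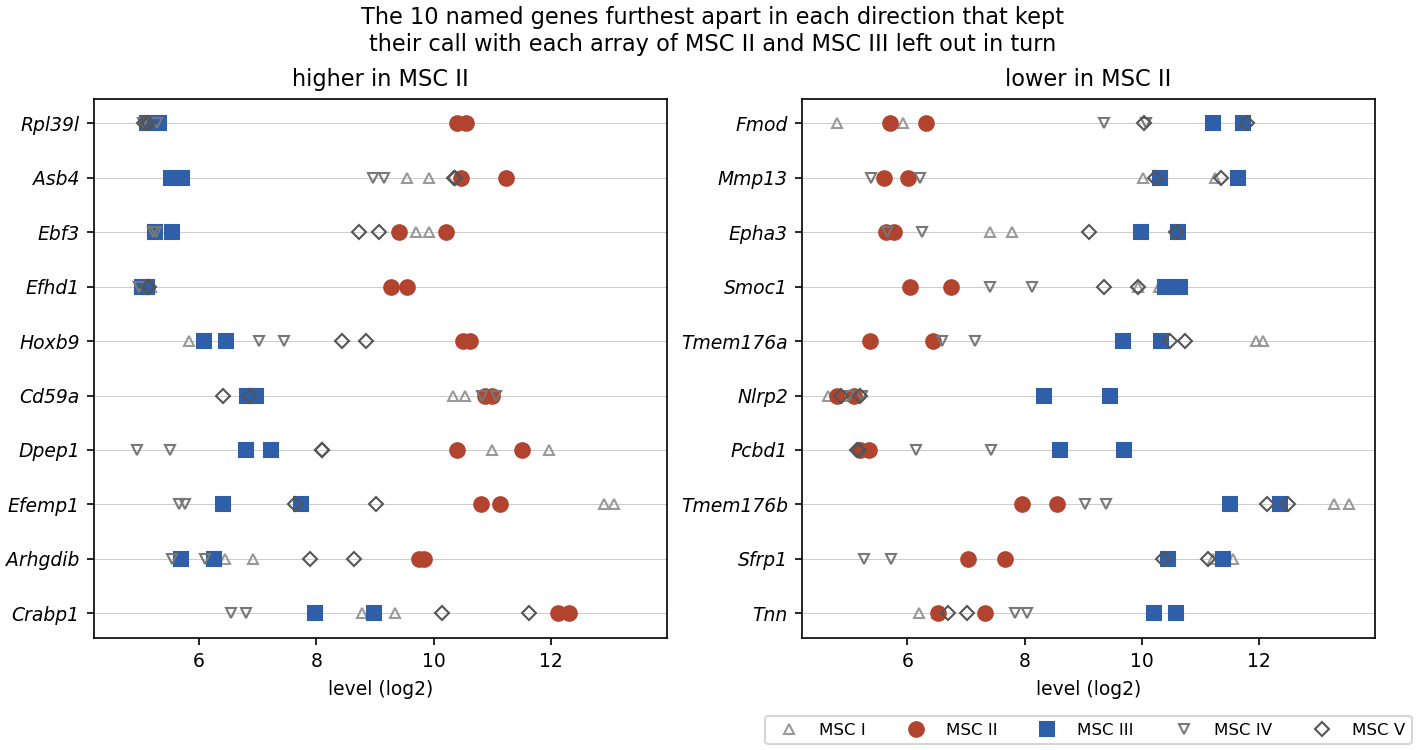
Level (log2) on all 10 arrays of the 10 named genes with the largest difference in each direction that kept their call with each of the 4 arrays left out in turn; filled symbols are MSC II and MSC III, open symbols the other preparations, 2 arrays each. Rpl39l and Efhd1 are high in MSC II alone and Nlrp2 and Tnn in MSC III alone, whereas Asb4 is low in MSC III alone.

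Receptors and ligands of axon guidance, which also steer mesenchymal cells, changed in both directions. Of 29 tested guidance genes 6 were lower and 3 higher in MSC II, 31% of the list against 3.02% of all tested genes, with a median of -0.28. Epha3, a receptor for A-type ephrins, read 5.63 and 5.78 in MSC II and 10.62 and 9.99 in MSC III, a 24.2-fold lower level in MSC II (-4.60 ± 0.46, adjusted p = 0.00214). Epha4 (-1.56), Robo1 (-1.52), Epha2 (-1.41), Nrp2 (-1.33) and Sema4d (-1.22) were also called lower. The counts were 2 to 3 lower and 1 to 2 higher when 1 of the 4 arrays was left out, and 3 lower and 3 higher with the 4 arrays fitted alone, and Epha3 was called with each array left out. Plxnc1, the receptor for Sema7a, passed the filter through MSC II alone and was higher there, at 8.22 and 7.69 against 5.58 and 5.64 (2.34 ± 0.28, adjusted p = 0.00434). Sema7a, its ligand, read 9.11 and 9.07 against 6.88 and 7.81 (1.74, adjusted p = 0.113) and was not called. Sema5a (3.11, adjusted p = 0.0112) and Sema3d (1.16, adjusted p = 0.00749) were the other higher ones. Sema5a lost its call without any 1 of the 4 arrays (0.0552 to 0.0766), and Sema3d without MSC II replicate 2, where its difference was 0.99, or without MSC III replicate 2 (0.0635).

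The membrane protein genes Tmem176a and Tmem176b, which lie back to back on chromosome 6, were lower together in MSC II. Tmem176a read 5.36 and 6.44 in MSC II and 10.33 and 9.68 in MSC III (-4.10 ± 0.37, adjusted p = 0.00151). Tmem176b read 7.95 and 8.55 against 12.36 and 11.50 (-3.68 ± 0.32, adjusted p = 0.00112). For both genes the MSC II arrays were the lowest of the 10, and MSC I had the highest mean of the 5 preparations, 13.40 for Tmem176b. Gpnmb, a membrane glycoprotein and the next tested gene, extended the run to 3 with 7.55 and 7.74 against 11.35 and 9.78 (-2.92 ± 0.54, adjusted p = 0.0236), but lost its call without MSC II replicate 1 (0.0912), MSC II replicate 2 (0.0985) or MSC III replicate 1 (0.0991). The DNA between start sites of the pair is shown because both genes are read outward from it. With 2 listed starts of Tmem176a and 3 of Tmem176b, the closest starts were taken, so other starts would give other windows. The stretch shown spans 108 bases at chr6:48841375-48841482 in GRCm38.p6, plus strand, from the RefSeq promoter table, with no part in capitals.
Tmem176b-Tmem176a: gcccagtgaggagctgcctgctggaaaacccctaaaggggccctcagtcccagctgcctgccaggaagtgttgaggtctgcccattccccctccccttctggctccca
Its share of G and C was 63.9%, against a median of 54.6% in windows of the same length before 32851 starts. The letters TATAAA and CCAAT, searched on both strands, were not in this window, and 5.9% and 19.9% of the windows held them.

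Lists of genes of the lineages that stromal cells can enter had medians close to that of all genes. Of 17 tested osteoblast genes and 23 tested adipocyte genes 0 were called, with medians of -0.06 and -0.04, against -0.006 over all genes. Of 10 tested chondrocyte and tendon genes 1 was called, Fmod (-5.46), which is 10% against 3.02% of all tested genes. The median of the 10 was -0.02. Single members of the osteoblast and adipocyte lists were far apart without being called. Alpl, the bone alkaline phosphatase, read 7.45 and 9.06 in MSC II and 11.79 and 10.46 in MSC III (-2.87 ± 0.95, adjusted p = 0.116), and Dmp1, an osteocyte gene, read 6.95 and 9.66 against 6.86 and 5.45 (2.15 ± 0.99, adjusted p = 0.23). Fabp4, of fat cells, read 6.30 and 7.35 against 8.48 and 8.57 (-1.70 ± 0.49, adjusted p = 0.0819), while Pparg, the main regulator of fat cell formation, differed by -0.23 (adjusted p = 0.651). Of 14 tested niche factors Ebf3 was higher and Bmp4 lower, 14.3% of the list against 3.02% of all tested genes. The median of the 14 was -0.69, and 11 of them had a negative difference. Bmp4, a bone morphogenetic protein, read 10.14 and 10.80 against 11.90 and 12.31 (-1.63 ± 0.28, adjusted p = 0.0187), with its call lost without MSC II replicate 1 (0.0761), MSC III replicate 1 (0.0619) or MSC III replicate 2 (0.111). Cxcl12, the main retention signal for blood stem cells, read 11.98 and 12.88 against 12.64 and 12.47 (-0.13, adjusted p = 0.835), Kitl differed by -1.51 (adjusted p = 0.19), and Lepr, the receptor that marks marrow stroma, read 5.54 and 5.44 against 6.69 and 8.35 (-2.03, adjusted p = 0.0718).

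Among inflammatory chemokines and cytokines the spread between arrays was wide. Ccl7, a monocyte attractant, was the 1 called gene of 14 tested, 7.14% against 3.02% of all tested genes. It read 7.33 and 8.63 against 11.055 and 10.044 (-2.57 ± 0.54, adjusted p = 0.0349). It lost its call without MSC II replicate 1 (0.12), MSC III replicate 1 (0.172) or MSC III replicate 2 (0.0747). Its neighbour in function Ccl2 read 6.46 and 7.94 against 10.06 and 8.82 (-2.24, adjusted p = 0.109). Cxcl10 differed by -1.22 (adjusted p = 0.185) and Il6 by -0.94 (adjusted p = 0.3). The median of the 14 was -0.78, and 11 of them had a negative difference.

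Genes of cell division differed in 1 direction without passing the test. All 29 tested genes of mitosis and spindle had a negative difference, with a median of -1.26, and 0 were called. Of 30 tested genes of DNA replication 29 had a negative difference, with a median of -0.48. Of the 30, 1 was called, 3.33% against 3.02% of all tested genes. Kif23, a kinesin of cytokinesis, had the largest difference of the first list, with 7.38 and 8.90 in MSC II and 10.04 and 10.73 in MSC III (-2.25 ± 0.57, adjusted p = 0.0629). The proliferation marker Mki67 read 8.07 and 9.57 against 10.15 and 11.31 (-1.90 ± 0.68, adjusted p = 0.136), and the mitotic kinase Cdk1 11.07 and 11.53 against 11.28 and 11.90 (-0.29, adjusted p = 0.618). Rrm2, the ribonucleotide reductase subunit of S phase, was the called gene, at 7.99 and 8.65 against 10.25 and 11.57 (-2.59 ± 0.57, adjusted p = 0.0398), and lost its call without any 1 of the 4 arrays (0.0579 to 0.187).

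The spread within a preparation was large for these genes. The median level of the 29 mitosis genes was 8.18 on MSC II replicate 1, 9.57 on MSC II replicate 2, 9.99 on MSC III replicate 1 and 10.73 on MSC III replicate 2. The arrays of the preparations did not overlap for 22 of the 29, which is 75.9%, against 56.7% of all tested genes. The median difference of the mitosis genes was -0.69 with MSC II replicate 1 left out, -0.73 with MSC III replicate 2 left out, -1.74 with MSC III replicate 1 left out and -1.80 with MSC II replicate 2 left out. That of the replication genes ran from -0.18 with MSC III replicate 2 left out to -0.82 with MSC III replicate 1 left out. The genes of each list were read on the same 4 arrays and are not independent. Among 22 tested inhibitors and p53 targets the G1 cyclin Ccnd1 (-1.07), Phlda3 (-1.60) and Zmat3 (-1.11) were called lower. These were 13.6% of the list against 3.02% of all tested genes. The senescence marker Cdkn2a read 10.06 and 10.40 against 10.04 and 10.29 (0.06, adjusted p = 0.873). The call of Phlda3 was lost without MSC II replicate 1 or either MSC III array (adjusted p = 0.0672 to 0.0937), that of Ccnd1 without the same arrays (0.082 to 0.109) and that of Zmat3 without any 1 of the 4 (0.064 to 0.149).

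Imprinted genes are read from 1 parental copy in at least some tissues, and whether they were so in these cells was not tested. Of 17 tested genes listed as imprinted, 3 were higher in MSC II (Asb4, Dcn and Plagl1) and 3 lower (Peg3, Dio3 and Igf2). These were 35.3% of the list against 3.02% of all tested genes. Asb4 kept its call whichever array was left out. Dio3, the deiodinase that inactivates thyroid hormone, read 5.90 and 5.84 against 8.13 and 9.07 (-2.73 ± 0.46, adjusted p = 0.0174). Peg3, a zinc finger protein that passed the filter through MSC III alone, read 5.35 and 4.88 against 6.78 and 8.96 (-2.75, adjusted p = 0.0456). Dio3 was not called without MSC II replicate 1 (0.0696), MSC II replicate 2 (0.0854) or MSC III replicate 2 (0.0962), and Peg3 without the same arrays (0.106, 0.186 and 0.109). Plagl1, a zinc finger regulator of growth, differed by 1.09 (adjusted p = 0.0141) and was not called without any 1 of the 4 arrays (0.0633 to 0.0934). Sgce and Peg10, which share an imprinted region of chromosome 6 with Asb4, differed by 0.21 and 0.30 (adjusted p = 0.488 and 0.667).

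**Figure D4:**
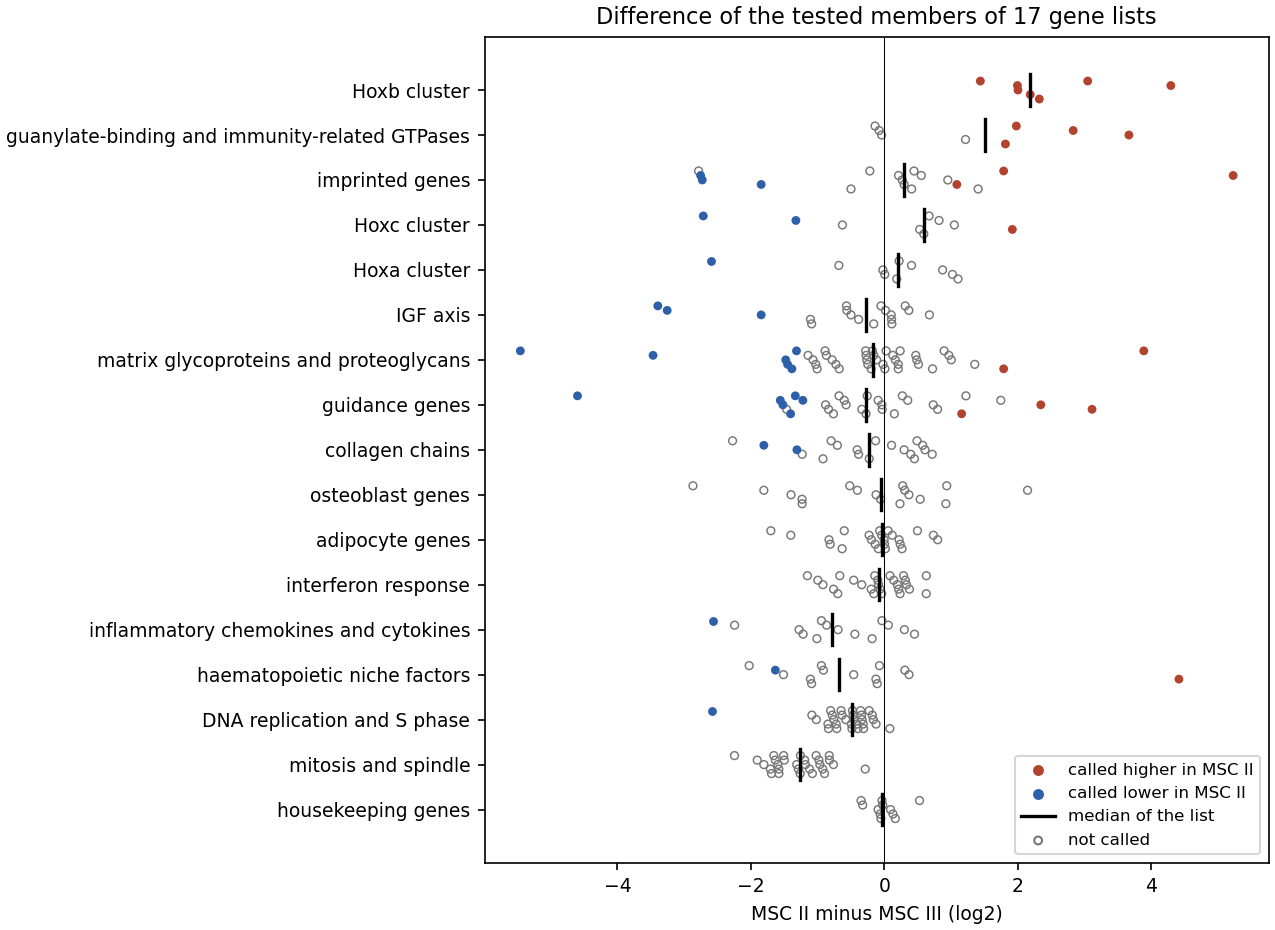
Difference MSC II minus MSC III (log2) of each tested member of 17 gene lists; filled points are called genes (red higher, blue lower in MSC II), open points were not called, and the black bar is the median of the list. All 7 Hoxb genes are called to the right, whereas the mitosis genes lie to the left of 0 with 0 called and the housekeeping genes lie around 0.

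The remaining lists held few calls each, or none. Where a list below held calls, their share was above the 3.02% of all tested genes. It was 14.3% for potassium channels, with 1 of 7 called, and 33.3% for endothelial markers, with 1 of 3 called. None of 11 housekeeping genes, 18 cholesterol genes, 30 genes of glycolysis and hypoxia, 17 of iron handling, 15 smooth muscle genes, 14 angiogenic factors and 13 class I genes was called, with medians from -0.18 to -0.03. Among 20 tested adhesion genes the integrin Itga7 was called higher (1.37) and the integrins Itga1 (-2.44) and Itga11 (-1.70) and the cadherin Cdh11 (-1.90) lower. These calls were 20% of the list against 3.02% of all tested genes. Of 18 PDGF and FGF genes Spry1, an inhibitor of FGF signalling, was called higher (2.24, adjusted p = 0.0349) and the receptor Fgfr2 lower (-1.53, adjusted p = 0.0476). Of 12 prostaglandin genes the prostacyclin synthase Ptgis was called lower, 8.33% of the list. It read 7.51 and 7.32 against 11.12 and 10.98 (-3.63 ± 0.54, adjusted p = 0.0104). Ptgis lost its call without any 1 of the 4 arrays (0.0503 to 0.0712), and so did Itga7, Itga1, Cdh11, Spry1 and Fgfr2, while Itga11 lost it without 3 of the 4. Of 8 complement genes Cd59a was higher and Serping1, the C1 inhibitor, lower (-1.49, adjusted p = 0.0385), 25% of the list. Serping1 lost its call without MSC II replicate 1 or either MSC III array. Kcnmb4, a subunit of the BK channel, was called higher (1.99, adjusted p = 0.038, and 0.119 to 0.177 without MSC II replicate 2 or either MSC III array), and the pore subunit Kcnma1 was high in both, at 13.79 and 14.22 against 13.54 and 14.12. Ptprb, a phosphatase of endothelium, passed the filter through MSC II alone and was called higher (2.24, adjusted p = 0.0215), beside Pecam1 at 4.82 to 5.01 on the 4 arrays. Ptprb lost its call without MSC II replicate 1 or either MSC III array.

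Set against the other preparations, called genes stood outside the other 8 arrays in MSC II and in MSC III. Of the 165 genes higher in MSC II, 97 had both MSC II arrays above the other 8 arrays and 32 had both MSC III arrays below them. Of the 166 lower genes, 54 had the MSC II arrays below the other 8 and 49 had the MSC III arrays above them. The mean of MSC I, MSC IV and MSC V was nearer to MSC III for 220 of the 331 genes and nearer to MSC II for 111. The same counts were not taken over all tested genes, so these are a description only. For 68 of the higher genes the mean of MSC III was under the median of the table, 6.55, and for 70 of the lower genes that of MSC II was. Through the MSC II arrays alone 93 genes passed the filter, 27 of them called, and through the MSC III arrays alone 56 did, 18 of them called. The filter favoured a difference in these genes, and they support nothing on their own. The genes nearest the minimum for a call were Spry3 (1.023), Mtcl1 (1.010), Gm14403 (1.006), Pkdcc (-1.002) and Mboat2 (-1.001) on the inside, and Alkbh7 (0.999), Wdr31 (0.996), Narf (0.993), Rtp4 (-0.997) and Hoxd8 (-0.998) on the outside.

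Whole chromosomes also differed between the preparations by small amounts in 1 direction. The 547 tested genes of chromosome 10 had a median difference of 0.39, with 87.2% of them positive, and 22 were called higher and 3 lower. On chromosome 14 the median of 378 genes was 0.39, with 20 called higher and 1 lower, and on chromosome 11 it was 0.26, with 25 called higher, 8 of them the run at the Hoxb cluster, and 6 lower. The lowest medians were those of chromosome 12 (-0.29, 2 higher and 15 lower), chromosome 6 (-0.26, 5 and 16) and chromosome 13 (-0.23, 0 and 10). Called genes were 4.57% of the tested genes of chromosome 10, 5.56% on chromosome 14 and 3.45% on chromosome 11. They were 4.5% on chromosome 12, 3.76% on chromosome 6 and 2.35% on chromosome 13, against 3.02% of all tested genes. On these 6 chromosomes the medians over the genes that were not called were nearly the same, from -0.27 to 0.38. All 4 differences between 1 array of MSC II and 1 of MSC III had the same sign there, for example 0.35 to 0.41 on chromosome 10. Between the arrays of 1 preparation the chromosome medians ran from -0.08 to 0.03 in MSC II and from -0.15 to 0.07 in MSC III.

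Against the mean of MSC I, MSC IV and MSC V, the median of chromosome 10 was 0.57 and 0.59 on the MSC II arrays and 0.18 and 0.17 on those of MSC III. For chromosome 12 it was -0.03 and -0.05 in MSC II and 0.27 and 0.27 in MSC III. Chromosome 10 thus stood apart mainly in MSC II and chromosome 12 in MSC III. These shifts are smaller than the minimum of 1 for a call and are given beside the gene results as values.

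**Figure D5:**
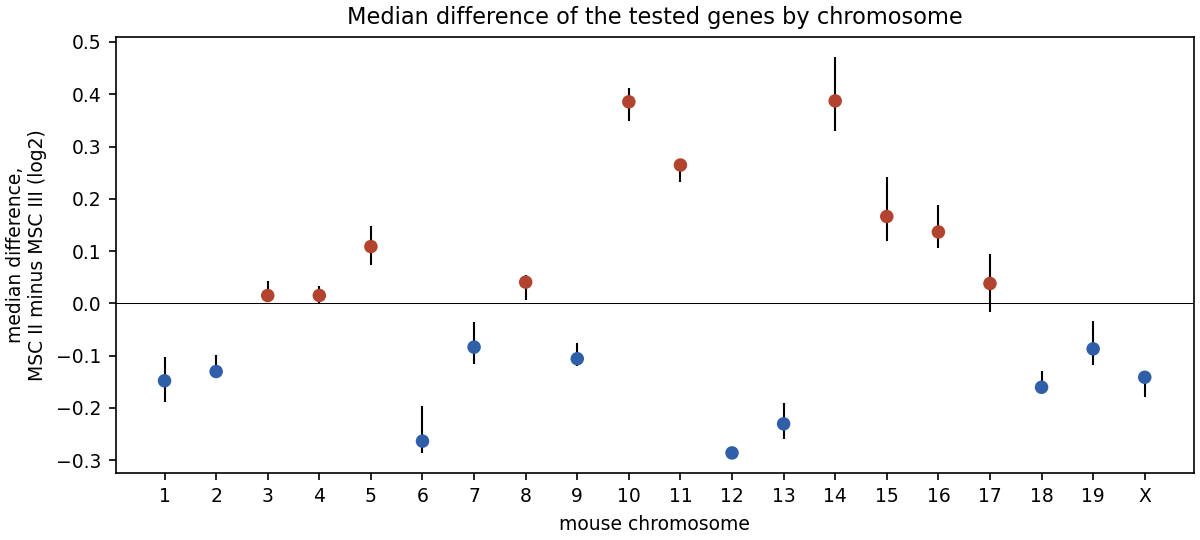
Median difference MSC II minus MSC III (log2) of the tested genes of each mouse chromosome (red above 0, blue below); the vertical lines span the medians of the 4 differences between 1 array of MSC II and 1 of MSC III. Chromosomes 10, 11 and 14 lie highest (0.39, 0.26 and 0.39) and chromosomes 12, 6 and 13 lowest (-0.29, -0.26 and -0.23).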

How the data were processed

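Expression was measured on Affymetrix arrays, and the deposited table held log2 values of 35399 probe sets on 10 arrays. The authors made them with RMA and Partek, per the submitters' processing notes, and their versions are not given in the sources used here. The RMA method corrects background, equalises the distributions of the arrays and summarises probes on the log2 scale. The platform annotation paired 21789 probe sets with 1 gene symbol, 1621 with several and 11989 with none. Only those with 1 symbol were used, and 21698 of them matched a gene of assembly GRCm38.p6, which gave current symbols, chromosomes and gene order. They covered 19938 genes. For the 999 with more than 1 probe set the one with the highest mean over the 10 arrays was used. The 10971 genes with at least 2 arrays above the median of the table (6.55) were tested.

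Means per preparation were fitted to all 10 arrays by limma 3.58.1 (lmFit, then eBayes) under R 4.3.3, so that all arrays share 1 estimate of spread. Tables were made in Python 3.11.15. Two-sided p-values were adjusted over all tested genes by the Benjamini-Hochberg method. The fit was tested on simulated data.

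The 52 gene lists held 1175 entries, 1075 of them measured, 29 found only where a probe set listed several symbols and 71 with no symbol. The preparations, the lists and the tests were chosen with earlier results of these data known. Genes named are the 20 largest called differences in each direction without predicted names, up to 10 per preparation outside the other 8 arrays, list members, runs of neighbours and the 5 genes nearest the minimum on each side; exceptions are named as such. Alternatives were 3 filters on low values, averaged probe sets per gene, arrays centred or quantile normalised again, eBayes with trend and robust settings, only the 4 arrays, a replicate block, each of the 4 arrays left out and no minimum difference. Where an array was left out, the lone array of its preparation was assumed to vary like the others.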

Additional observations from a re-analysis of the deposited data

How the results depend on the processing

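The counts of genes higher and lower in MSC II (165 and 166) moved by less than 1.5 times when arrays were centred, normalised again or tested alone, with probe sets averaged, with trend and robust settings, and with no filter on low values or one on the 4 arrays (125 to 176 higher and 128 to 167 lower). When the filter was raised to percentile 75 of all values (9.22), 6940 genes were tested, and 72 were higher and 85 lower; with no minimum difference the counts were 413 and 283. Leaving out each of the 4 arrays gave 83 to 148 higher and 62 to 94 lower genes. The replicate numbers did not pair the arrays: deviations of same-numbered arrays of different preparations correlated at -0.55 to 0.20, and at 0.20 for MSC II with MSC III. With the replicate block 113 genes were higher and 104 lower, and 3 guidance genes (of 6), 1 imprinted gene (of 3) and 0 chemokine genes (of 1) were called lower. Of 117 reported genes with a call, 60 kept it in every fit that tested them and 80 in every fit that left out no array; 48 lost it without MSC III replicate 2, 30 with the replicate block and 0 with trend and robust settings. No direction of a called gene reversed in any of these fits (0 of 117), an outcome largely fixed in advance. The arrays did not overlap for any called gene, so leaving out 1 array could not reverse a direction. The filters, the 4 arrays alone, the replicate block and the trend and robust settings left each difference unchanged. Genes with levels near the floor were not tested under the stricter filter, the Hoxb genes other than Hoxb9 among them, and 2 arrays per preparation set the precision.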

Other observations

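Further called genes, picked after their values were seen, kept their call with each of the 4 arrays left out. Acpp, an acid phosphatase that also works on extracellular AMP, read 10.40 and 9.54 in MSC II and 6.89 and 7.33 in MSC III (2.86 ± 0.28, adjusted p = 0.00194). Il17rd, an inhibitor of FGF signalling, read 10.35 and 11.09 against 8.38 and 8.21 (2.42 ± 0.24, adjusted p = 0.00214), and Cst6, an inhibitor of cysteine proteases, 8.34 and 8.03 against 5.75 and 5.86 (2.38 ± 0.14, adjusted p = 0.000225). On the MSC III side, the forkhead factor Foxa1, known from endoderm, read 5.93 and 5.71 against 8.28 and 8.17 (-2.40 ± 0.17, adjusted p = 0.000479). P2rx7, an ion channel opened by extracellular ATP, read 5.20 and 5.44 against 7.50 and 7.60 (-2.22 ± 0.17, adjusted p = 0.000715). Cst6 passed the filter on low values through MSC II alone and P2rx7 through MSC III alone, so the filter favoured a difference in both.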
